A study of Tachysurus vachellii with 6 samples.

Results

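The genes described here encode the machine that brings proteins into mitochondria and the chaperones that fold them inside. They were taken as every row of the deposited table whose symbol starts with timm or tomm, the rows hspd1, hspe1 and hspa9, and every row described as a mitochondrial import inner membrane translocase or a mitochondrial import receptor subunit. The rule found 32 of 28288 genes, 21 by the symbol prefix, 3 by name and 8 by description alone. It used no measured value. The rule also took timmdc1, described as a complex I assembly factor, and tomm34, known in mammals as a cytosolic co-chaperone, neither of which is a core part of a translocase.

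RNA came from the gill of hybrid yellow catfish, bred from female Tachysurus fulvidraco and male Pseudobagrus vachellii. In the hypoxia group fish were held for 96 h at 1.5 mg/L dissolved oxygen, and in the normoxia group for 96 h at 6.5 mg/L. All fish shared acclimation near 28 °C and a fast of 24 h before the trial. Each group had 9 fish whose RNA was pooled in sets of 3, giving 3 hypoxia and 3 normoxia libraries, so the error beside a value is that of pools. Variation among individual fish is reduced by pooling, remains within the spread of pools and cannot be estimated separately. The sources used here do not say whether pools of a group came from separate tanks, and p-values measure only how far these pools differ.

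Nearly all mitochondrial proteins are encoded in the nucleus, made in the cytosol and imported. The TOM complex of the outer membrane receives them, and inside it they are passed to the TIM23 complex, which feeds the matrix, or through small chaperones of the intermembrane space to the TIM22 complex, which inserts carriers into the inner membrane. In the matrix the mitochondrial Hsp70, encoded by hspa9, pulls the chain inward, and the chaperonin of hspd1 and its lid hspe1 fold it. In mammals and worms these chaperones are the classical markers of the mitochondrial unfolded protein response. The gill is rich in mitochondria because its ionocytes pump ions.

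Library totals ran from 44762764 to 55016223 counts, and TMM factors, which edgeR uses to scale libraries to each other, from 0.867 in hypoxia replicate 1 to 1.08 in normoxia replicates 2 and 3. Marker genes of 7 gill cell types were also looked at, and 0 were called higher by edgeR. Of the ionocyte markers 0 of 11 tested were called by edgeR, with 1 higher and 1 lower at an unadjusted p under 0.05 and 1 higher by DESeq2. The log2 change was above 0 in 10 of these 11, with a median of 0.37, beside -0.035 over all genes. All ionocyte markers together summed to 812 to 1064 FPKM in hypoxia and 601 to 945 FPKM in normoxia. Among them foxi3 had no count and cftr lay under 1 FPKM in every library. Striated muscle markers summed to 341 to 470 FPKM in hypoxia and 106 to 444 FPKM in normoxia, with 0 of 11 called (1 higher at an unadjusted p under 0.05 and 0 by DESeq2). The myoglobin gene mb made up most of the sum in hypoxia replicates 2 and 3 and normoxia replicate 1. In replicates 1, 2 and 3 it had 152, 362 and 334 FPKM in hypoxia, against 103, 14.5 and 149 FPKM in normoxia. The log2 change was above 0 in 4 of the 11 tested muscle markers, with a median of -0.24. Among leukocyte markers 2 of 8, cd79a and LOC113656273, were called lower, with 5 lower at an unadjusted p under 0.05, 4 lower by DESeq2, all 8 below 0 and a median log2 of -0.53. Their sums were 4311 to 4952 FPKM in hypoxia and 6769 to 8237 FPKM in normoxia. LOC113654954, described as a class II histocompatibility antigen gamma chain, made up most of this sum in every library. In replicates 1, 2 and 3 it had 4229, 4527 and 3919 FPKM in hypoxia, against 7660, 6235 and 6248 FPKM in normoxia. It was not called (log2 difference -0.50 ± 0.21, edgeR adjusted p = 0.153). Of the remaining lists none had a called gene, with 5 tested in epithelium, 11 in red blood cells, 3 in endothelium and 1 in mucous cells. At an unadjusted p under 0.05 there was 1 higher and 1 lower in epithelium. At that p 1 was lower in red blood cells, 0 in endothelium and 1 lower in mucous cells. DESeq2 called 1 higher and 1 lower in epithelium and 1 lower in mucous cells. Over all genes edgeR called 5.39% higher and 4.15% lower, and DESeq2 called 11.7% higher. At an unadjusted p under 0.05 these shares were 15.3% higher and 15.0% lower. With so few genes tested, a list without calls does not show that its cell type was unchanged. Sums were 3783 to 5554 FPKM in hypoxia and 3675 to 5966 FPKM in normoxia for epithelium, and 7350 to 10024 FPKM in hypoxia and 6841 to 14835 FPKM in normoxia for red blood cells. Endothelial markers summed to 4.50 to 8.35 FPKM in hypoxia and 9.27 to 9.54 FPKM in normoxia. The mucous cell gene agr2 had 140 to 327 FPKM in hypoxia and 350 to 676 FPKM in normoxia. On counts scaled by TMM the groups of agr2 overlapped. Of the 3 endothelial genes 1, tie1, was lower without overlap in FPKM and on that scale. Over all genes 25.9% were lower without overlap in FPKM and 18.5% on the TMM scale. The part of these shifts in the results on import genes was not tested.

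In hypoxia 12 of 30 tested import and chaperone genes were higher and none was lower, beside 5.39% of all 15312 tested genes called higher and 4.15% called lower. The calls lay at the entry gate (tomm20, tomm22, tomm6 and both Tom40 genes), in the intermembrane chaperones (timm8b, timm10, timm13), in timm17a of the TIM23 complex and in the matrix chaperones hspa9, hspd1 and hspe1. The largest rises were 2.57-fold in hspe1, 2.51-fold in timm10, 2.37-fold in hspd1 and 2.08-fold in tomm22. These folds and the log2 changes below include TMM scaling, which the deposited FPKM do not, so ratios of FPKM differ from them. With library totals alone the log2 changes of these genes were 1.18, 1.16, 1.08 and 0.88 in that order, against 1.36, 1.33, 1.25 and 1.05 with TMM. Genes were tested where they reached 1 FPKM in at least 3 of 6 libraries, with the quasi-likelihood test of edgeR and a call at a Benjamini-Hochberg adjusted p under 0.05 over all genes. FPKM is the count scaled for transcript length and library size, so it may be set side by side between genes. In whole gill, fewer cells of a type and less RNA per cell cannot be told apart.

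At an unadjusted p under 0.05 there were 19 higher and 0 lower members by edgeR, beside 15.3% of all genes higher and 15.0% lower. In turn DESeq2 called 16 higher and 0 lower, against 11.7% of all genes called higher by DESeq2. The log2 change was above 0 in 28 of 30 tested members, with a median of 0.61 and a range from -0.11 to 1.36, beside a median of -0.035 over all genes. All members together took 0.124%, 0.121% and 0.130% of the counts in hypoxia replicates 1, 2 and 3, and 0.0915%, 0.0803% and 0.0912% in normoxia replicates 1, 2 and 3. The deposited FPKM did not overlap between the groups in 17 members that were higher and 1 that was lower in hypoxia, beside 11.4% and 25.9% of all genes. On counts scaled by TMM, the scale of the test, 22 members were higher without overlap and 0 lower, beside 18.7% and 18.5% of all genes. The members tomm70, tomm7, timm8a, timm50 and LOC113638894 overlapped in FPKM but not on the TMM scale, and timm17b separated in FPKM alone. Fewer calls were made with fewer libraries: leaving out hypoxia replicate 1, 2 or 3 gave 2, 4 and 8 called members. With normoxia replicate 1 left out 9 were called, and with normoxia replicate 2 or 3 left out 2. Only hspd1 and timm10 were called in each of these 6 fits. Of the other called members, tomm22 and LOC113641216 were called in 3 of them, timm13, hspa9 and hspe1 in 2, tomm20, tomm6 and timm17a in 1, and LOC113647461 and timm8b in 0, with edgeR adjusted p of up to 0.149, that of tomm20.

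**Figure D1:**
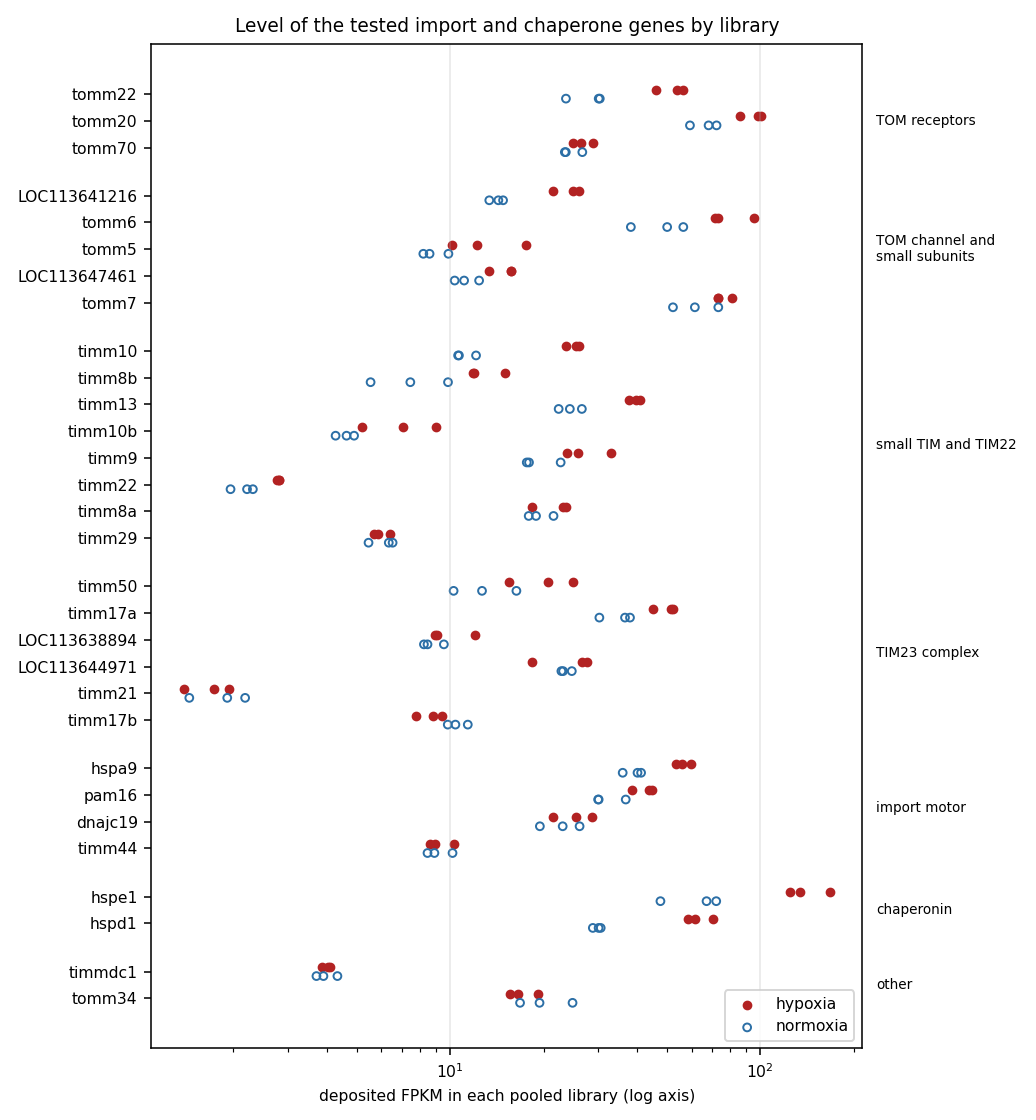
Deposited FPKM of the 30 tested genes on a log axis, with each point a pooled library, hypoxia filled and above, normoxia open and below. For hspd1, hspe1, timm10 and tomm22 every hypoxia library lies well to the right of every normoxia library, while the points of timm44, timm29 and timmdc1 lie on top of each other.

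The receptors of the TOM complex were next compared, in the order of the path that a precursor takes. Values by library are given for replicates 1, 2 and 3 of each group in that order. The gene tomm22, at NW_020848232.1:965916-968155, encodes the central receptor that holds the complex together. It had 53.9, 46.0 and 56.5 FPKM in hypoxia, against 30.1, 23.6 and 30.4 FPKM in normoxia (log2 change 1.05 ± 0.16, edgeR adjusted p = 0.0198). The presequence receptor gene tomm20 had 101, 98.0 and 85.7 FPKM in hypoxia, against 72.2, 59.3 and 68.1 FPKM in normoxia (log2 change 0.68 ± 0.17, edgeR adjusted p = 0.0491). For both genes all hypoxia libraries lay above all normoxia libraries, but the call of tomm20 was just inside the threshold, and only 1 of the 6 leave-one-out fits repeated it. The third receptor gene, tomm70, which in yeast and mammals takes up carrier precursors handed over by cytosolic chaperones, had 26.5, 24.9 and 28.9 FPKM in hypoxia, against 26.7, 23.4 and 23.6 FPKM in normoxia. Its groups overlapped in FPKM, though not on the TMM scale, and it did not pass the test (log2 difference 0.28 ± 0.13, edgeR adjusted p = 0.191).

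Relative to tomm70 the other receptors had higher levels in every hypoxia library. The ratio of tomm22 to tomm70 in FPKM was 2.03, 1.85 and 1.95 in hypoxia, against 1.13, 1.01 and 1.29 in normoxia. That of tomm20 to tomm70 was 3.80, 3.95 and 2.97 in hypoxia, against 2.71, 2.53 and 2.89 in normoxia. A ratio within a library does not depend on how libraries are scaled to each other. It can still move with transcript length, estimated at 4026 bases for tomm70, 911 for tomm22 and 886 for tomm20. With the length correction described below, log2 changes were 0.93 for tomm22, 0.54 for tomm20 and 0.44 for tomm70. The part of length in these ratios was not tested. Ratios were tested for 10 pairs of genes, most of them chosen with the values known, by an exact two-sided permutation test, which with 3 against 3 pools cannot go below p = 0.10. Both receptor ratios reached that smallest p, which is 0.143 adjusted over the 10 pairs.

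The channel of the TOM complex is a barrel built by Tom40, and 2 genes of the table are described as its homolog. LOC113641216, at NW_020848394.1:2445851-2451879, had 26.1, 21.4 and 25.0 FPKM in hypoxia, against 14.8, 13.4 and 14.3 FPKM in normoxia (log2 change 0.93 ± 0.15, edgeR adjusted p = 0.0225). The other, LOC113647461, had 13.3, 15.8 and 15.8 FPKM in hypoxia, against 11.1, 10.3 and 12.4 FPKM in normoxia (log2 change 0.56 ± 0.13, edgeR adjusted p = 0.0463). Both rose, without overlap between the groups, and LOC113641216 exceeded LOC113647461 by a ratio of 1.96, 1.36 and 1.58 in hypoxia, against 1.34, 1.29 and 1.15 in normoxia (exact p = 0.10). As paralogs they could share reads, so the split between them is uncertain, and LOC113647461 lost its call in each of the 6 fits without a library.

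A further 2 genes, LOC113663412 and LOC113663415, are described as Tom40B-like and were not tested, being under the filter. LOC113663412 had 0.659, 0.279 and 0.576 FPKM in hypoxia, against 0.881, 0.795 and 0.647 FPKM in normoxia. LOC113663415 had 0, 14 and 21 counts in hypoxia replicates 1, 2 and 3 and no count in normoxia. The genes overlap by 1062 bases on opposite strands, and with no strand setting given their reads cannot be told apart.

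Small subunits brace the channel. The gene tomm6 had 71.6, 73.0 and 95.4 FPKM in hypoxia, against 56.4, 38.2 and 50.1 FPKM in normoxia (log2 change 0.88 ± 0.18, edgeR adjusted p = 0.0358) and rose without overlap. For tomm5 the values were 10.1, 12.2 and 17.5 FPKM in hypoxia, against 8.59, 8.20 and 9.88 FPKM in normoxia, also without overlap, but it did not pass the test (log2 difference 0.72 ± 0.19, edgeR adjusted p = 0.0594). In tomm7 they were 81.3, 72.9 and 73.3 FPKM in hypoxia, against 61.5, 52.3 and 73.2 FPKM in normoxia (log2 difference 0.45 ± 0.17, edgeR adjusted p = 0.132). In both tomm5 and tomm6 hypoxia replicate 3 stood highest of the 6 libraries, and in tomm7 normoxia replicate 3 reached into the hypoxia range in FPKM, though not on the TMM scale. Of the 8 tested TOM genes 5 were called, beside 5.39% of all genes called higher, and all 8 had a log2 change above 0.

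Between the membranes, rings of small TIM proteins carry hydrophobic precursors. Tim9 and Tim10 make the main ring, and Tim8 and Tim13 a second kind. The gene timm10, at NW_020848409.1:414309-418167, had 25.4, 23.6 and 26.0 FPKM in hypoxia, against 12.1, 10.7 and 10.6 FPKM in normoxia (log2 change 1.33 ± 0.16, edgeR adjusted p = 0.0110). All hypoxia pools lay far above all normoxia pools, and the call held with any library left out. Its ring partner timm9 had 25.8, 33.0 and 23.8 FPKM in hypoxia, against 18.0, 17.7 and 22.7 FPKM in normoxia and did not pass the test (log2 difference 0.67 ± 0.21, edgeR adjusted p = 0.0815), although the groups did not overlap. The ratio of timm10 to timm9 was 0.986, 0.715 and 1.09 in hypoxia, against 0.675, 0.604 and 0.467 in normoxia (exact p = 0.10), so the level of timm10 was near that of timm9 in hypoxia replicates 1 and 3 and below it in every normoxia library.

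The gene timm13 had 41.0, 37.6 and 39.6 FPKM in hypoxia, against 24.3, 22.4 and 26.6 FPKM in normoxia (log2 change 0.86 ± 0.14, edgeR adjusted p = 0.0226), and rose. Of its possible partners, timm8b had 12.0, 11.9 and 15.1 FPKM in hypoxia, against 7.44, 5.54 and 9.85 FPKM in normoxia and was called at the edge of the threshold (log2 change 0.92 ± 0.23, edgeR adjusted p = 0.0496). The other, timm8a, known for the human deafness-dystonia syndrome, had 18.3, 23.0 and 23.6 FPKM in hypoxia, against 17.9, 21.5 and 18.9 FPKM in normoxia (log2 difference 0.31 ± 0.15, edgeR adjusted p = 0.211), with groups that overlapped in FPKM and not on the TMM scale. The ratio of timm13 to timm8a was 2.24, 1.63 and 1.68 in hypoxia, against 1.36, 1.04 and 1.41 in normoxia (exact p = 0.10). For timm8b over timm8a it was 0.653, 0.516 and 0.639 in hypoxia, against 0.415, 0.257 and 0.520 in normoxia, which overlapped (exact p = 0.20).

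The TIM22 complex receives these cargoes. Its channel gene timm22 had low levels, 2.82, 2.81 and 2.76 FPKM in hypoxia, against 2.31, 1.96 and 2.22 FPKM in normoxia (log2 difference 0.53 ± 0.18, edgeR adjusted p = 0.0961), with hypoxia libraries above normoxia and close together in FPKM. On the TMM scale the coefficient of variation of timm22 was 9.6% in hypoxia and 10.3% in normoxia. On the opposite strand LOC113655066 overlaps timm22 by 647 bases, with a mean of 0.346 FPKM in hypoxia and 0.516 FPKM in normoxia. The docking subunit gene of the complex, timm10b, had 9.04, 7.04 and 5.20 FPKM in hypoxia, against 4.90, 4.64 and 4.28 FPKM in normoxia (log2 difference 0.80 ± 0.32, edgeR adjusted p = 0.142), spread widely in hypoxia. In timm29, a subunit known from human cells, the values were 5.84, 6.41 and 5.70 FPKM in hypoxia, against 6.34, 5.46 and 6.53 FPKM in normoxia (log2 difference 0.13 ± 0.16, edgeR adjusted p = 0.613), and the sign turned with library totals or limma. None of these TIM22 genes passed the test. Of the 8 genes of the small TIM and TIM22 group 3 were called, beside 5.39% of all genes called higher.

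Of the 6 genes of the TIM23 complex 1 was called, beside 5.39% of all genes called higher. Their median log2 change was 0.27, beside 0.68 in the TOM receptors and 0.72 in the TOM channel and small subunits. In the small TIM and TIM22 genes it was 0.74. Differences between these small groups were not tested. The gene timm17a, whose product lines the presequence channel and is degraded early in stressed mammalian cells, had 45.0, 51.4 and 52.5 FPKM in hypoxia, against 36.6, 30.3 and 38.0 FPKM in normoxia (log2 change 0.66 ± 0.13, edgeR adjusted p = 0.0344). Its paralog timm17b had 8.82, 9.43 and 7.77 FPKM in hypoxia, against 11.4, 10.4 and 9.83 FPKM in normoxia (log2 difference -0.11 ± 0.19, edgeR adjusted p = 0.728). In FPKM timm17b was lower in every hypoxia library, but with TMM scaling its groups overlapped, and the sign of the log2 value turned without hypoxia replicate 3.

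The balance between the paralogs does not depend on that scaling. The ratio of timm17a to timm17b was 5.10, 5.45 and 6.75 in hypoxia, against 3.21, 2.91 and 3.87 in normoxia, a difference of 0.79 on the log2 scale without overlap (exact p = 0.10, 0.143 adjusted over 10 pairs). Over 2416 bases timm17b overlaps pqbp1, a gene on the opposite strand that was called higher (log2 change 0.64 ± 0.15, edgeR adjusted p = 0.0433), and without strand their reads cannot be told apart.

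Both genes described as Tim23, the channel itself, failed to pass. LOC113638894 had 8.94, 9.09 and 12.0 FPKM in hypoxia, against 9.55, 8.46 and 8.24 FPKM in normoxia (log2 difference 0.34 ± 0.18, edgeR adjusted p = 0.242). The more abundant LOC113644971 had 18.3, 26.7 and 27.6 FPKM in hypoxia, against 23.1, 22.8 and 24.7 FPKM in normoxia (log2 difference 0.19 ± 0.15, edgeR adjusted p = 0.433), with hypoxia replicate 1 lowest of the 6 libraries. Their ratio overlapped between the groups (exact p = 0.40). The receptor gene timm50, which meets precursors as they leave the TOM channel, had 24.8, 15.5 and 20.6 FPKM in hypoxia, against 16.4, 10.3 and 12.7 FPKM in normoxia (log2 difference 0.80 ± 0.26, edgeR adjusted p = 0.0953), a difference as large as in some called genes but with a wide spread in both groups. For timm21, which in yeast and human cells links the complex to the respiratory chain, values were 1.73, 1.94 and 1.38 FPKM in hypoxia, against 1.44, 2.18 and 1.91 FPKM in normoxia (log2 difference 0.044 ± 0.26, edgeR adjusted p = 0.927). Its sign turned with library totals, with limma and in 3 of the 6 fits that leave out a library. This row, estimated at 4542 bases, is also described as a FAM179B-like protein, so its values cannot be credited to Tim21 alone.

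**Figure D2:**
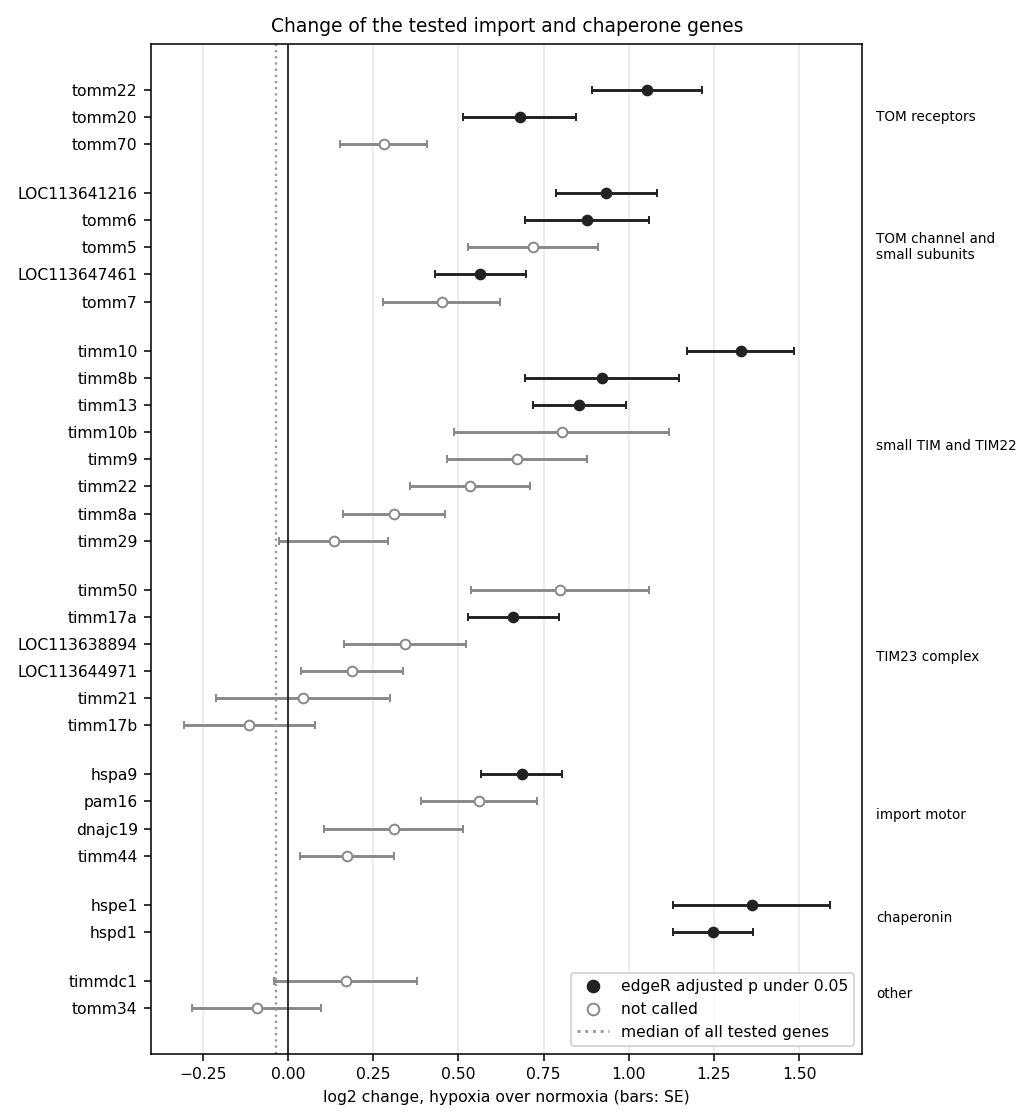
Log2 change with hypoxia over normoxia for the 30 tested genes, ordered by role and size, with bars of 1 SE, filled points called at an edgeR adjusted p under 0.05 and a dotted line at the median of all genes, -0.035. The chaperonin pair and timm10 stand above 1.2, the TOM genes between 0.28 and 1.05, and most of the TIM23 complex and motor lies under 0.7.

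On the matrix side the import motor draws the chain in by cycles of hspa9, anchored by Tim44 and driven by J-proteins. The gene hspa9, at NW_020848201.1:12040891-12062553, had 53.6, 56.0 and 59.7 FPKM in hypoxia, against 40.2, 36.0 and 41.3 FPKM in normoxia (log2 change 0.69 ± 0.12, edgeR adjusted p = 0.0255). It was the only motor gene of the 4 to pass, beside 5.39% of all genes called higher. The anchor gene timm44 had 8.94, 8.60 and 10.3 FPKM in hypoxia, against 8.46, 8.90 and 10.2 FPKM in normoxia (log2 difference 0.17 ± 0.14, edgeR adjusted p = 0.434), with groups that overlapped. The J-protein gene dnajc19, described as TIM14, had 25.5, 28.6 and 21.4 FPKM in hypoxia, against 19.5, 26.1 and 23.1 FPKM in normoxia (log2 difference 0.31 ± 0.20, edgeR adjusted p = 0.345). Its regulator gene pam16, described as TIM16, had 44.6, 43.8 and 38.6 FPKM in hypoxia, against 30.0, 30.1 and 36.8 FPKM in normoxia (log2 difference 0.56 ± 0.17, edgeR adjusted p = 0.0794), without overlap in FPKM.

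Both chaperonin genes rose, with a median log2 change of 1.30. The gene hspd1, which encodes the subunits of the folding chamber, had 61.6, 58.5 and 70.3 FPKM in hypoxia, against 30.1, 28.8 and 30.6 FPKM in normoxia (log2 change 1.25 ± 0.12, edgeR adjusted p = 0.00587). Its lid gene hspe1 had 168, 125 and 134 FPKM in hypoxia, against 72.1, 47.6 and 67.1 FPKM in normoxia (log2 change 1.36 ± 0.23, edgeR adjusted p = 0.0244). Hypoxia replicate 1 stood highest for hspe1, and normoxia replicate 2 lowest for both. The adjusted p of hspd1 stayed at or under 0.0357 with any library left out, while hspe1 was called in 2 of these 6 fits, with an adjusted p of up to 0.0764.

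The level of hspd1 was above that of hspa9 in every hypoxia library and below it in every normoxia library. The ratio of hspd1 to hspa9 was 1.15, 1.04 and 1.18 in hypoxia, against 0.749, 0.801 and 0.741 in normoxia, a log2 difference of 0.56 (exact p = 0.10). The ratio of hspd1 to hspe1 was 0.368, 0.468 and 0.525 in hypoxia, against 0.418, 0.605 and 0.456 in normoxia, which overlapped (exact p = 0.70). The first ratio separated the groups without overlap, at the smallest p these pools allow, and for the second a difference was not detectable with these pools.

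**Figure D3:**
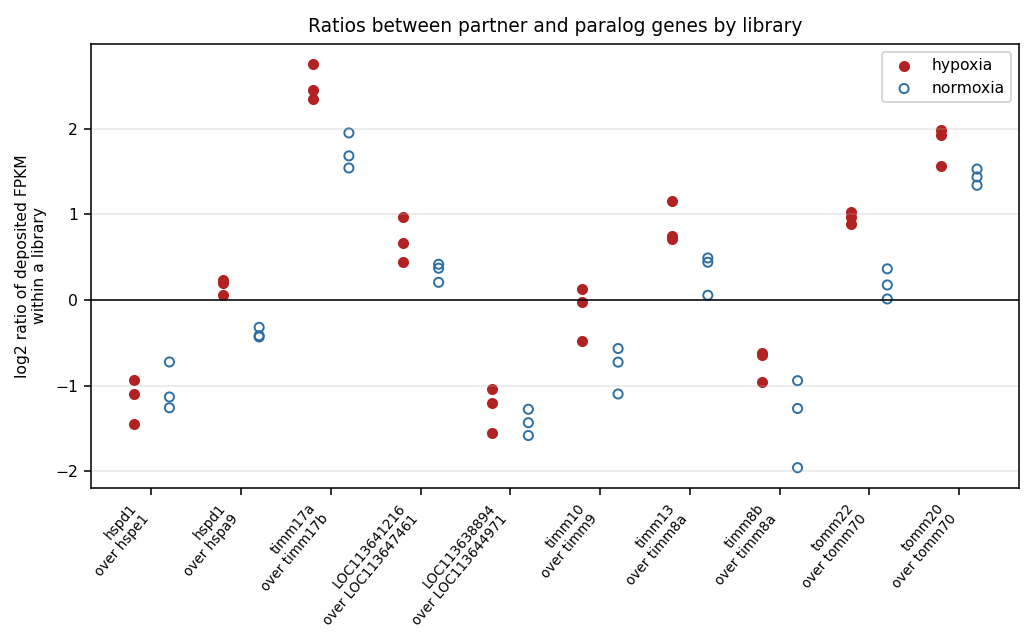
Log2 ratios of deposited FPKM between 10 pairs of genes within each library, with hypoxia filled and left and normoxia open and right of each tick. The groups separate in 7 of the 10 pairs, among them hspd1 over hspa9, timm17a over timm17b and tomm22 over tomm70, and overlap for hspd1 over hspe1, LOC113638894 over LOC113644971 and timm8b over timm8a. Most pairs were chosen with the values known, so this count does not measure how often gene pairs separate.

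The chaperonin genes lie head to head in the table's coordinates, for which the sources used here name no genome build. On scaffold NW_020847969.1 hspd1 runs from 1162379 to 1167347 on the minus strand and hspe1 from 1167757 to 1169854 on the plus strand, with 409 bases between their starts, an arrangement also known in mammals. Among 693 such pairs of tested neighbours within 1000 bases, 5 had both genes called higher, and the median difference in log2 change between neighbours was 0.41 in size. Of the other members, tomm22 faces LOC113637109 over 994 bases, a neighbour with a log2 difference of -0.053 ± 0.12 (edgeR adjusted p = 0.801). Facing timm29 over 72 bases, LOC113659094 had 0.37 ± 0.19 (edgeR adjusted p = 0.232). LOC113644970, 204 bases from the Tim23-like gene LOC113644971, had -0.13 ± 0.11 (edgeR adjusted p = 0.481). No promoter or protein sequence of these genes was used here.

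Outside the translocases, timmdc1 had 3.87, 4.05 and 4.11 FPKM in hypoxia, against 4.33, 3.91 and 3.71 FPKM in normoxia (log2 difference 0.17 ± 0.21, edgeR adjusted p = 0.627). For tomm34 the values were 15.6, 19.1 and 16.6 FPKM in hypoxia, against 24.8, 16.8 and 19.4 FPKM in normoxia (log2 difference -0.092 ± 0.19, edgeR adjusted p = 0.780). Neither passed, the sign turned for timmdc1 with library totals and for tomm34 without normoxia replicate 1, and without these genes 12 of 28 members were called.

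The members' transcripts are short, with a median estimated length of 1305 bases, against 2570 bases over all tested genes, and length moved with the change across all genes. With genes split by length into 4 classes of equal size, in the shortest class, up to 1657 bases, the median log2 change was 0.19 and 9.59% were called higher, and in the longest, over 3953 bases, the median was -0.19 and 2.06% were called higher. Of the members 18 fell in the shortest class, with 7 called and a median of 0.67, and 7 in the next, with 4 called and a median of 0.69. The third class held 2 members, with hspd1, at 2770 bases, called and timm29 not, and the longest class held 3, tomm70, timm22 and timm21, with 0 called and a median of 0.28. With a correction for length 8 of the 12 called members kept their calls, and the median over all 30 tested members was 0.55, beside 0.047 over all genes. Calls ended there for tomm20, tomm6, timm8b and timm17a, with edgeR adjusted p from 0.0548 to 0.0826. Their log2 values with the correction, and without it, were 0.54 and 0.68 for tomm20, 0.73 and 0.88 for tomm6, 0.89 and 0.92 for timm8b, and 0.56 and 0.66 for timm17a.

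**Figure D4:**
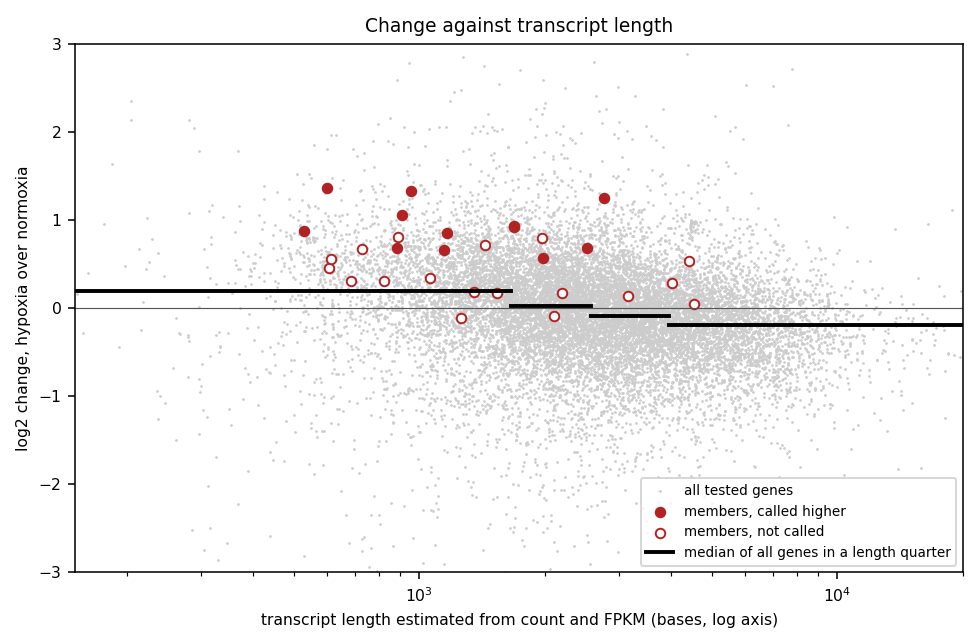
Log2 change with hypoxia over normoxia against estimated transcript length on a log axis, with all tested genes in grey, members in red (filled where called) and black lines at the median of all genes in each of 4 length classes. The lines step down from 0.19 to -0.19, and 28 of 30 members lie above 0. Of the tested genes, 66 lie outside the plotted range of 150 to 20000 bases and 3 log2 units.

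Genes that work beside the translocases were described from a list drawn up by role. Of 38 genes found, 37 were tested and 5 were called higher and none lower, with a median log2 change of 0.44, beside 5.39% of all genes called higher. At an unadjusted p under 0.05 there were 21 higher and 0 lower, beside 15.3% and 15.0% of all genes, and DESeq2 called 16 higher and 0 lower, beside 11.7% of all genes called higher. Both prohibitin genes rose, whose rings scaffold inner membrane proteins: phb had 83.1, 76.5 and 78.7 FPKM in hypoxia, against 49.4, 46.0 and 48.7 FPKM in normoxia (log2 change 0.89 ± 0.13, edgeR adjusted p = 0.0196). The gene phb2 had 104, 106 and 93.8 FPKM in hypoxia, against 71.6, 58.8 and 65.9 FPKM in normoxia (log2 change 0.80 ± 0.16, edgeR adjusted p = 0.0344). In the SAM complex, which builds barrels into the outer membrane, the gene LOC113635598, described as homolog A of component 50, had 27.5, 27.7 and 28.4 FPKM in hypoxia, against 19.0, 17.6 and 18.3 FPKM in normoxia (log2 change 0.77 ± 0.12, edgeR adjusted p = 0.0198). No overlap between the groups was seen in phb, phb2 and LOC113635598. The other gene described as component 50, LOC113645753, overlapped in FPKM, though not on the TMM scale. It did not pass the test (log2 difference 0.29 ± 0.17, edgeR adjusted p = 0.283). Of the 6 tested SAM genes 1 was called, beside 5.39% of all genes called higher.

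The nucleotide exchange factor gene of the motor, grpel1, had 44.8, 38.2 and 40.0 FPKM in hypoxia, against 26.2, 24.1 and 25.7 FPKM in normoxia (log2 change 0.86 ± 0.15, edgeR adjusted p = 0.0251). A subunit of the peptidase that cuts presequences, pmpca, had 15.5, 16.9 and 18.8 FPKM in hypoxia, against 12.8, 12.1 and 12.1 FPKM in normoxia (log2 change 0.62 ± 0.11, edgeR adjusted p = 0.0280), and its partner pmpcb had 42.3, 42.0 and 43.6 FPKM in hypoxia, against 38.2, 31.8 and 29.6 FPKM in normoxia (log2 difference 0.52 ± 0.15, edgeR adjusted p = 0.0685). All hypoxia libraries of grpel1 and pmpca lay above normoxia. The calls of these 5 genes were kept in 1 to 3 of the 6 fits without a library. No gene of the list was called when hypoxia replicate 2 or normoxia replicate 2 or 3 was left out, and 1 was when hypoxia replicate 1 was.

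For protein quality control, 0 of 9 tested proteases were called by edgeR, beside 5.39% of all genes called higher and 4.15% called lower. At an unadjusted p under 0.05 there were 3 higher and 0 lower, beside 15.3% and 15.0% of all genes. DESeq2 called 3 higher, beside 11.7% of all genes. With 9 genes, the absence of edgeR calls does not set the proteases apart from all genes. The matrix protease gene clpp, a marker of the mitochondrial unfolded protein response in mammals, had 27.6, 32.1 and 28.4 FPKM in hypoxia, against 23.6, 18.7 and 22.6 FPKM in normoxia (log2 difference 0.60 ± 0.16, edgeR adjusted p = 0.0569). The gene lonp1 had 9.54, 8.39 and 10.6 FPKM in hypoxia, against 7.62, 7.19 and 8.64 FPKM in normoxia (log2 difference 0.44 ± 0.14, edgeR adjusted p = 0.0870). On the inner membrane, yme1l1, whose product degrades Tim17-A in mammalian cells, had 15.1, 15.0 and 18.4 FPKM in hypoxia, against 20.1, 21.1 and 22.6 FPKM in normoxia (log2 difference -0.24 ± 0.11, edgeR adjusted p = 0.192), and oma1 had 4.84, 4.81 and 3.60 FPKM in hypoxia, against 7.43, 6.73 and 5.68 FPKM in normoxia (log2 difference -0.41 ± 0.26, edgeR adjusted p = 0.336). In FPKM yme1l1, oma1 and spg7, another inner membrane protease gene, were lower in every hypoxia library, as were 25.9% of all genes, and none of them passed the test. On the TMM scale yme1l1 alone of these stayed separated, beside 18.5% of all genes. Of 4 other matrix chaperones and cofactors none was called, with 1 at an unadjusted p under 0.05 and 1 by DESeq2, and the Hsp90 homolog gene trap1 had 21.9, 27.8 and 17.3 FPKM in hypoxia, against 20.7, 17.2 and 19.5 FPKM in normoxia (log2 difference 0.39 ± 0.22, edgeR adjusted p = 0.273).

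Set beside other groups of mitochondrial and chaperone genes picked by symbol, 12 of 30 import genes were called higher, against 33 of 74 mitochondrial ribosomal protein genes, 36 of 60 subunit genes of oxidative phosphorylation and 4 of 8 cytosolic chaperonin genes. Medians of the log2 change were 0.61 for the import genes, 0.66, 0.74 and 0.79 for those groups in that order and -0.035 over all genes. No test was made between these groups, and the comparison gives no property particular to import.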

How the data were processed

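Oligo-dT selected RNA from 6 pooled gill libraries was sequenced as paired reads, per the labels' protocols. The submitters' processing notes name cutadapt 1.9 and HISAT. For the counter, FPKM program, strand setting, build and annotation nothing is given in the sources used here. Whole-number counts and FPKM per gene and library were what the authors deposited, per the file headers, and genes with a count of 0 are listed at 0.0001 FPKM. The sources do not say if read pairs or single reads were counted.

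Columns were matched to samples by group code and number in the titles. Counts were tested with edgeR 4.0.16 (quasi-likelihood, TMM, two-sided, R 4.3.3), SE being the log2 change over the root of F. The common biological coefficient of variation over all tested genes was 0.329. Spread between pools entered every test beside counting error, but not at that common value for each gene. Among the tested members the SE on the log2 scale ran from 0.12 in hspd1 to 0.32 in timm10b. The procedure was tested on simulated data with the same spread between pools for every gene, smaller than the common value of 0.329. In the real data the spread differed between genes, with a median coefficient of variation of 16.8% in hypoxia and 14.8% in normoxia. That check therefore does not give the error rate of the calls made here. Libraries of a group differed beyond counting noise (chi-square per gene 112 or more). Transcript length was estimated from count, FPKM and library total where the count was at least 10. The length correction entered a loess curve (span 0.5) as offset. Alternatives used DESeq2 1.42.0, limma 3.58.1, other scalings and filters, a replicate block and each library left out. Members called and a listed set of core genes were to be given by library, and the remaining members were added after their values were seen. The other genes were matched by symbol or description. Of these, the called ones are given by library; clpp, lonp1, yme1l1, oma1, trap1, pmpcb and the stress factors were named after their values were seen. Members, lists and ratios were chosen with earlier results of these data known. The RefSeq table at hand, of another assembly, shared 0 identifiers and was left aside.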

Additional observations from a re-analysis of the deposited data

How the results depend on the processing

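Of the 30 tested import genes 12 were called higher. That count was 6 with library totals alone, 7 with limma on log2(FPKM + 1) or log2(FPKM + 0.1), 4 with a replicate block and 2 to 9 with a library left out, and stayed within 1.5 times under the other alternatives, with 0 lower in all. With library totals alone the median log2 change was 0.44 in the members and -0.20 in all genes, a gap of 0.65 as with TMM. Another scaling of libraries moves all genes nearly alike, so that gap could hardly change and its constancy is no check. With the length correction, which can change it, the gap was 0.50. For the 5 other import and quality control genes called higher the count was 16 with DESeq2, 0 with the replicate block and 0 to 6 with a library left out. Over all genes 825 were higher and 636 lower. This was 364 higher with library totals, 479 and 436 with limma, 541 higher and 321 lower without a filter, 392 lower with filterByExpr, 350 lower with the length correction, and 1792 higher and 1540 lower with DESeq2. With library totals 812 were lower, and with limma 887 and 748. With a library left out 68 to 490 were higher and 64 to 422 lower, and with the replicate block 122 higher and 120 lower. No pairing by the numbers in the titles was seen: same-numbered deviations correlated at -0.0837, 0.0451 and -0.0946. Those of other-numbered libraries correlated at -0.106 to 0.171. With 3 libraries per group, such correlations cannot show whether the design paired them.

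Signs turned in 5 genes, none called under any setting. The log2 value of timm29 was -0.041 with library totals, and -0.024 and -0.027 with limma (pseudocounts 1 and 0.1). For timm21 it was -0.15 with library totals, -0.082 and -0.12 with limma, and -0.072 to 0.22 with a library left out. With a library left out it was -0.18 to 0.015 for timm17b and -0.22 to 0.12 for tomm34. For timmdc1 it was -0.0013 with library totals. The causes were not tested.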

Other observations

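Genes of transcription factors and of the coactivator ppargc1a, known to act on mitochondrial genes, were looked at beside the import genes. Of 6 tested, 0 were called by edgeR, with 0 at an unadjusted p under 0.05 and 0 by DESeq2. Over all genes edgeR called 5.39% higher and 4.15% lower, so 0 of 6 does not set these genes apart. The stress factor gene atf4 had 976, 1021 and 1159 FPKM in hypoxia, against 997, 755 and 912 FPKM in normoxia (log2 difference 0.40 ± 0.17, edgeR adjusted p = 0.173), overlapping in FPKM and not on the TMM scale. For ddit3, whose product is known as CHOP, the values were 8.28, 8.30 and 12.9 FPKM in hypoxia, against 11.3, 15.0 and 14.4 FPKM in normoxia (log2 difference -0.32 ± 0.18, edgeR adjusted p = 0.282). The mitochondrial DNA packaging factor gene tfam had 8.41, 11.7 and 10.0 FPKM in hypoxia, against 11.0, 10.9 and 11.5 FPKM in normoxia (log2 difference 0.012 ± 0.16, edgeR adjusted p = 0.968), with groups that overlapped. The log2 difference was 0.12 ± 0.17 for nrf1, 0.0087 ± 0.28 for ppargc1a and -0.069 ± 0.10 for gabpa, with edgeR adjusted p of 0.671, 0.986 and 0.696. Transcript levels say nothing of the activity of these proteins.

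In some libraries most import genes lay on the same side of their group mean. On the log2 scale with TMM, hypoxia replicate 3 lay under its group mean in 23 of 30 members, with a median deviation of -0.081, and normoxia replicate 2 lay under its group mean in 27 of 30, with -0.13. In hypoxia replicate 1 the median deviation was 0.095 with 22 of 30 above, and in normoxia replicate 1 it was 0.10 with 23 of 30 above. Hypoxia replicate 2 had 16 above and 14 below, and normoxia replicate 3 had 20 above and 10 below. Over all genes the median deviation was between -0.0037 and 0.012 in each library. TMM scaling holds that median near 0 by design, so it is no contrast to the members. Such counts were not made for other groups of genes, and the part of transcript length in these deviations was not tested. The median coefficient of variation of a member was 11.5% in hypoxia and 10.4% in normoxia, against 16.8% and 14.8% over all tested genes in the same groups. These sets were not matched for expression level, and the part of level in this difference was not tested.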
